A study of Mus musculus with 4 samples.

Results

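Basophils and mast cells were looked for among the CD11b+ cells of MC38 tumors with a rule on 4 genes. A droplet was taken as a member when its unique molecular identifiers (UMIs, counted RNA molecules) of Cpa3, Mcpt8, Fcer1a and Ms4a2 summed to at least 3 and those of the macrophage genes C1qa, C1qb and C1qc summed to at most 2. The rule found 75 of 25333 kept cells, which is 0.296% (exact 95% binomial interval 0.233 to 0.371%). Of these, 36 came from the WT library and 39 from the VISTA KO library. The values of the 4 rule genes, and every comparison of the members with other cells, therefore describe the choice and carry no test.

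The study asked what VISTA, an inhibitory immune receptor encoded by Vsir, does in myeloid-derived suppressor cells of tumors. Chimeras were made with WT or VISTA KO bone marrow on C57/BL6 and received MC38, a mouse colon carcinoma line, after 6 weeks of reconstitution. Tumors were taken at a diameter of 9 to 10 mm and pooled, CD45.1 and CD45.2 staining separated WT from KO cells, and 10000 viable CD11b+ cells, stained with antibody tags for CD11c, Ly6G and Ly6C, were loaded on a 10x 3' v3.1 system. Each genotype is 1 library of pooled tumors, so no difference between genotypes has a replicate check and no p-value is given. The sources do not give the number of mice, the age or sex of the mice, the recipient's genotype or which CD45 form marked which donor, and a sort on CD11b leaves out basophils or mast cells that lack it on the surface.

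Basophils are short-lived granulocytes that leave the bone marrow mature, whereas mast cells complete their maturation in tissue and are filled with tryptases and chymases. Both carry the high-affinity IgE receptor, depend on the transcription factor GATA2, store histamine and carboxypeptidase A3, and release cytokines such as interleukin 4 when the receptor or an alarmin receptor is engaged. In the mouse, the protease Mcpt8 marks basophils, and Cma1, Mcpt4, Tpsb2 and Kit mark connective tissue mast cells.

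The members carried few molecules. Their median was 2511.5 UMIs in WT and 2516 in VISTA KO, against 4692 and 4212.5 over all kept cells, and they held a median of 1003 and 1048 genes. Mitochondrial RNA made up a median of 0.636 and 0.789% of their UMIs. The summed depth of the members was 106911 UMIs for WT and 131664 for VISTA KO. Levels below are UMIs divided by those sums, in the usual CPM unit. The libraries shared 47 barcode sequences, of which 0 were members. Intervals cover counting error alone.

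The label was checked against markers of both cell types, and mast cell protease RNA was found in 1 droplet. A split by RNA of Mcpt8, Prss34 and Cd200r3 against Cma1, Tpsb2, Tpsab1, Mcpt4, Mcpt1, Mcpt2 and Kit, with at least 2 UMIs on one side and at most 1 on the other, put 72 of 75 members (96%) on the basophil side, 34 in WT and 38 in VISTA KO. Mcpt8 is a rule gene, so that count was largely set by the choice of droplets. With Prss34 and Cd200r3 alone, 41 of 75 members (54.7%) were on the basophil side, 16 in WT and 25 in VISTA KO, and 59 (78.7%) had at least 1 UMI of either gene. The mast cell side alone held 0 of 75, with an exact upper limit of 4.80%. One WT droplet passed both sums, and 2 droplets, 1 from each library, passed neither. Of the 20 listed basophil markers, 20 were found in at least 10% of members and were at least 2-fold above other kept cells in both libraries, and 16 of those are outside the rule. Of the 19 listed mast cell markers, 7 were found that often and 6 were that far above, namely Hdc, Slc18a2, Cpa3, Gata2, Fcer1a and Ms4a2. Cpa3, Gata2, Fcer1a and Ms4a2 are on both lists. Over all genes found in at least 10% of members, 15.5% of 3344 were that far above. Both lists were chosen with earlier results of these data known, so these counts describe the members and do not test the label.

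The 1 droplet with mast cell RNA held 5628 UMIs, of which 596 (10.6%) came from mast cell proteases and Kit. It carried 297 UMIs of Mcpt2 and 147 of Cma1, both chymases, 111 of the chymase Mcpt4, 36 of the tryptase Tpsb2 and 3 of Tpsab1. It also held 28 UMIs of Cpa3, 5 of the histidine decarboxylase gene Hdc and 2 each of Kit, Gata2 and Cd200r3, with 0 of Mcpt8. Its antibody tags were 1 for CD11c, 0 for Ly6G and 101 for Ly6C, a count shared with 1 other WT member as the lowest of that library. Among the other 74 members, Cma1, Mcpt2, Mcpt4 and Tpsb2 were at 0 UMIs. The VISTA KO droplet that passed neither sum held 7904 UMIs, 46 UMIs of Cd74, 81 of Lyz2 and 83 CD11c tags, more CD11c than any other member.

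Of the rule genes, Mcpt8, a basophil granule protease at chr14:56082163-56085499, was the most abundant. It was found in 34 of 36 WT and 38 of 39 VISTA KO members, with a median of 9 and 8 UMIs per droplet and a highest value of 67 and 38. Ms4a2 (chr19:11615517-11623790), the beta chain of the IgE receptor, was found in 23 WT and 31 VISTA KO members. Cpa3 (chr3:20215616-20242209), the carboxypeptidase of both granule types, was found in 15 and 17. Fcer1a (chr1:173221269-173227232), the IgE-binding chain, was found in 17 and 7. Most members were thus chosen on Mcpt8, and the median of the 4-gene sum was 12 in WT and 9 in VISTA KO.

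The rule's threshold lay where few droplets were. Within the C1q limit, a marker sum of 1 was found in 2 WT and 8 VISTA KO droplets, a sum of 2 in 2 and 3, a sum of 3 in 5 and 3, a sum of 4 in 2 and 2, and a sum of 5 or more in 29 and 34. Gata2, which the rule did not use, had a UMI in 0 of the 2 WT and 5 of the 8 VISTA KO droplets with a sum of 1, in 2 of 2 and 3 of 3 with a sum of 2, and in 5 of 5 and 3 of 3 with a sum of 3.

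The sequences before the starts of the 4 rule genes are shown because GATA2 RNA was found in 70 of the 75 members and GATA factors bind sites with the core GATA. The 250 bases before a listed RefSeq start on build GRCm38.p6 are given 5' to 3' on the gene's strand, which is the minus strand for these 4 genes. These starts lie inside the gene spans given above. The Mcpt8 window therefore lies within its span, and those of Ms4a2, Cpa3 and Fcer1a overlap theirs in part. Capitals mark AGATAA or TGATAA, or their reverse complements TTATCT and TTATCA. Ms4a2 (chr19:11623720-11623969) had 3 matches, with first bases at -224, -37 and -11 from the start, Cpa3 (chr3:20242182-20242431) had 1 at -46, Fcer1a (chr1:173227230-173227479) had 1 at -92, and Mcpt8 (chr14:56085198-56085447) had 0.
Ms4a2: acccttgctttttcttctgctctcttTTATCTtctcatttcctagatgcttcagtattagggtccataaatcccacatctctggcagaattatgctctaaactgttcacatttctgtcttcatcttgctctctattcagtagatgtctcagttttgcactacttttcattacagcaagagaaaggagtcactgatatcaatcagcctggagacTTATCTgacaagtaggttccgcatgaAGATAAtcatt
Cpa3: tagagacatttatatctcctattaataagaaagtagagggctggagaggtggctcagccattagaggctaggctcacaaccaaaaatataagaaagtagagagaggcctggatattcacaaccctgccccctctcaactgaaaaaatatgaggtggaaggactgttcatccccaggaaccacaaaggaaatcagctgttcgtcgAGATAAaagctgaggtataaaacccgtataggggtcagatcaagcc
Fcer1a: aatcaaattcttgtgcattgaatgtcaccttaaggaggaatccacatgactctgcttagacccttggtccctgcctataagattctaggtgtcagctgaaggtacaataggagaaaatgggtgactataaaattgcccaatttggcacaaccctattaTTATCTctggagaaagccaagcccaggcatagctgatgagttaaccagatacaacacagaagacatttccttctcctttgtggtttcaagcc
Mcpt8: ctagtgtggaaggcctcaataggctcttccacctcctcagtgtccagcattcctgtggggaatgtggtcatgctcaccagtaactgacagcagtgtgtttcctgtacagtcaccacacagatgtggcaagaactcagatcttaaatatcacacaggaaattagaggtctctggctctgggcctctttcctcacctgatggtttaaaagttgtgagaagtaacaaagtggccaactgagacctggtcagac
In windows from 250 bases before to 50 after the start, AGATAA occurred in 11.2% and TGATAA in 9.05% of 32851 RefSeq promoters on either strand, and 18.6% held at least 1 of the motifs. Windows with 3 or more matches, as in Ms4a2, were 0.502% of all. Of 18 leading genes outside the rule that had a promoter entry, 8 had a match in at least 1 window, which is 9 of their 25 promoter entries (36%), among them Prss34, Grm6, Cd200r3, Il13, Il6 and Il1rl1. A match is a description of the letters, not a site in use, and some promoters held both motifs.

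Genes outside the rule gave the members a basophil pattern that both libraries shared. Gata2, the transcription factor of both lineages, was found in 33 of 36 WT and 37 of 39 VISTA KO members at 1328 and 1405 CPM, against 2.28 CPM over other kept cells. Cyp11a1, the steroid side-chain cleavage enzyme, was found in 32 and 37 members at 1319 and 1109 CPM. Hdc, which makes histamine, had a UMI in every one of the 75 members, from 1 to 32 per droplet in WT and 1 to 27 in VISTA KO. Hdc is not particular to basophils in these libraries, since it was also found in 87.5% of WT neutrophil reference droplets, though at 722 CPM against 2937 CPM in WT members. Cd200r3, an activating receptor of basophils and mast cells, was found in 24 and 33 members, and Grm6, a glutamate receptor gene, in 19 and 21. Itga2b, the CD41 integrin chain shared with platelets, was found in 15 and 18, while the platelet genes Ppbp, Gp9 and Gp1bb were at 0.

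The pattern was also seen at equal depth. Each cell was thinned to 1000 UMIs and shallower cells were dropped, so that 35 of 36 WT and 39 of 39 VISTA KO members remained. Mcpt8 was found in 82.9 and 79.5%, Gata2 in 71.4 and 69.2% and Cyp11a1 in 71.4 and 66.7%. In the thinned neutrophil, monocyte and natural killer (NK) reference droplets, Gata2 was found in at most 0.139% and Cyp11a1 in at most 0.239%, while Hdc was found in 56.7 and 64.8% of the neutrophil droplets. These reference droplets were non-members within the same C1q limit, chosen on S100a8 and S100a9 with Csf3r or Cxcr2, on Ly6c2, and on NK receptor genes.

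**Figure D1:**
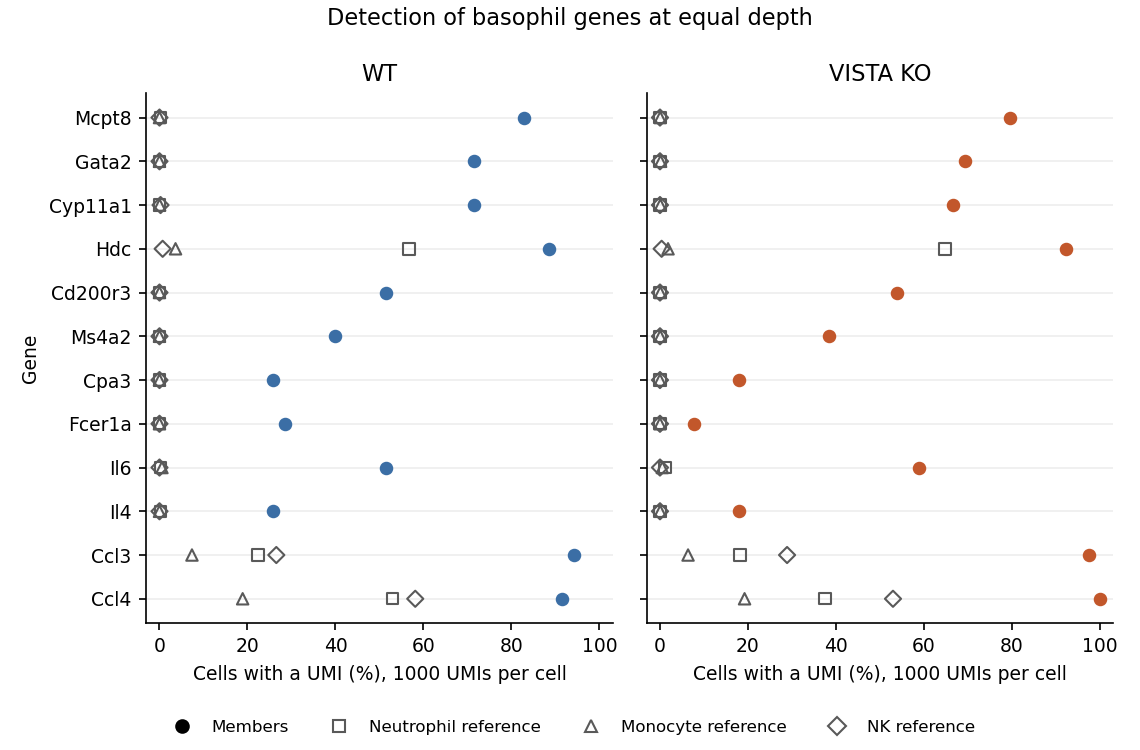
Share of cells with at least 1 UMI of each gene after thinning to 1000 UMIs per cell, for the 75 members (filled) and for 3 kinds of reference droplet (open), in WT and VISTA KO. Members stand far to the right for Mcpt8, Gata2, Cyp11a1, Il6 and Ccl3 in both libraries, and neutrophil reference droplets share Hdc.

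Markers of other cell types were mixed, with several defining genes missing. Eosinophil granule genes Prg2 and Epx, the T cell genes Cd3e, Cd3d and Cd3g, the NK receptor Ncr1, the group 2 innate lymphoid gene Gata3 and the neutrophil genes Ly6g, Camp and Ngp were at 0 UMIs in all members. Other genes of the same lists were present. Cxcr2, a chemokine receptor listed for neutrophils, was found in 41 of 75 members at 293 CPM against 46.5 CPM in other kept cells, and with Hdc the neutrophil list summed to 4049 CPM against 2698 CPM. Il1rl1, Il13 and Hs3st1, listed for group 2 innate lymphoid cells, were found in 32, 11 and 11 members, and that list summed to 637 against 77.8 CPM. The NK list summed to 897 against 760 CPM, with Gzmb in 11 members and Nkg7 in 13. The eosinophil genes Siglecf and Alox15 were found in 5 and 7 members. The part of such cells in the members' values was not tested. The 11 macrophage markers summed to 1160 CPM in WT and 2605 CPM in VISTA KO members, against 10056 and 13526 CPM in other kept cells, with Mrc1 at 0. The 8 monocyte markers summed to 7090 and 8150 CPM, against 10526 and 9328 CPM. The monocyte sum was near its level in the rest, but it rested mainly on Ly6c2 and Plac8. Over all members these stood at 3412 and 3404 CPM, against 2754 and 4786 CPM in other kept cells. Ccr2, Fn1 and F13a1 were at least 2-fold below other kept cells in both libraries, and no monocyte marker was that far above. Macrophage RNA was far below its level in the rest, with a larger sum in VISTA KO than in WT members. Fewer molecules per cell and fewer cells with a molecule cannot be told apart in such sums.

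The antibody tags, which the rule did not use, set most members apart from neutrophil reference droplets in Ly6G and from monocyte reference droplets in Ly6C. Each tag is an antibody with an attached oligonucleotide that is counted like RNA, and the 3 tag sequences are given because tag values rest on their counts.
CD11c: gttatggacgcttgc
Ly6G: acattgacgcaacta
Ly6C: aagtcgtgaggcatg
Ly6G tags had a median of 2 in WT and 1 in VISTA KO members, against 66 and 42 in neutrophil reference droplets. CD11c tags had a median of 2 and 2, against 19 and 12 in droplets with Cd209a RNA, a dendritic cell gene. In monocyte reference droplets the CD11c medians were 6 and 8. Ly6C tags had a median of 195.5 (range 101 to 3624) in WT and 169 (84 to 3062) in VISTA KO, near the 188 and 178 of NK reference droplets and below the 1059 and 1046 of monocyte reference droplets. The monocyte reference was chosen on Ly6c2 RNA, which encodes a Ly6C protein, so its Ly6C level follows in part from that choice. At or above the monocyte reference median of Ly6C stood 5 WT and 5 VISTA KO members. For the Cd209a droplet median of CD11c the counts were 2 and 4, and for the neutrophil reference median of Ly6G 1 and 0. Most members were thus low for all 3 proteins, with a few droplets in both libraries that were not.

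**Figure D2:**
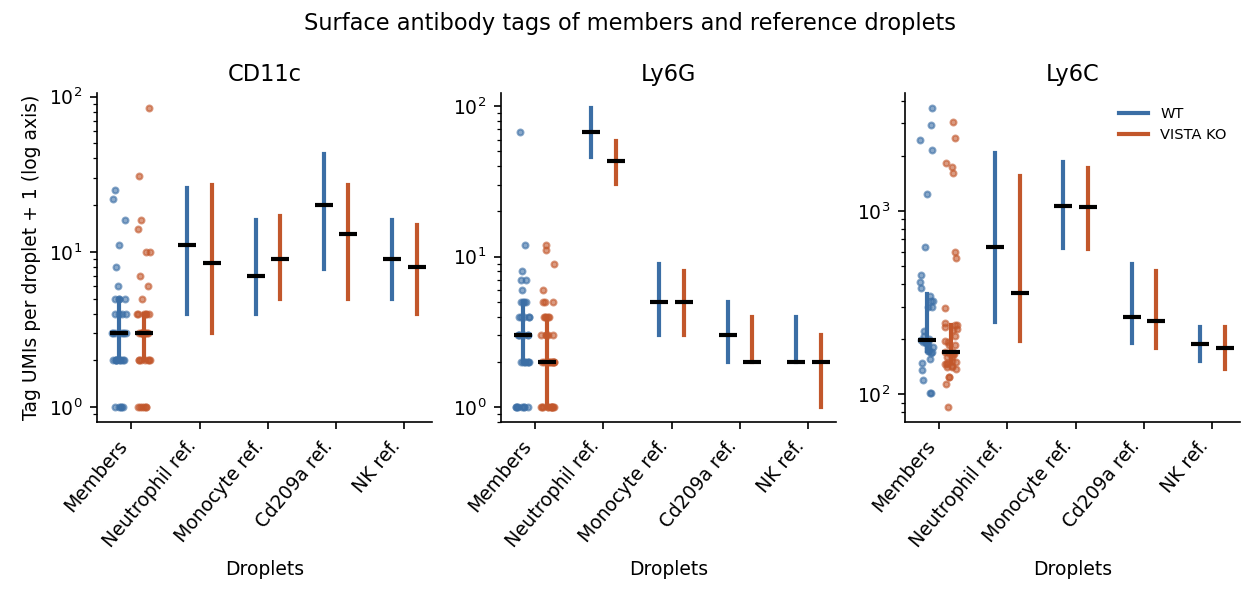
Antibody tag UMIs per droplet plus 1 on log axes for the members (points) and for 4 kinds of reference droplet, with bars from the first to the third quartile and black marks at the median. Members of both libraries lie low for Ly6G and CD11c, and 5 members of each library reach the monocyte level of Ly6C.

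Chemokines made up the largest block of secreted-factor RNA. Ccl4, a CC chemokine, stood at 27191 CPM in WT and 23940 CPM in VISTA KO, with a median of 57.5 UMIs per droplet (0 to 359) and 65 (2 to 208). Ccl6, another CC chemokine of mouse myeloid cells, reached 17295 and 14810 CPM. Ccl3, of the same family, reached 15246 and 12783 CPM and was found in 35 of 36 and 39 of 39 members, against 22.7% of other kept cells. The droplets of both libraries overlapped over most of their range for these chemokines, and none of the 3 passed the size rule described below.

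Cytokine RNA was common for some genes and rare for others. Il6 was found in 27 of 36 WT and 32 of 39 VISTA KO members at 1422 and 1663 CPM, against 1.83% of other kept cells. The gp130 cytokine Osm was found in 35 and 38 members, and Hgf, hepatocyte growth factor, in 30 and 29. Il4, which drives type 2 responses, was found in 12 and 20 members, and its partner Il13 in 6 and 5. Il4 RNA was concentrated: of 355 UMIs, 209 (58.9%) lay in 1 WT droplet, and the 5 highest droplets held 86.5%. Il4 and Il6 were found together in 8 WT and 17 VISTA KO members, and Il4 without Il6 in 4 and 3.

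**Figure D3:**
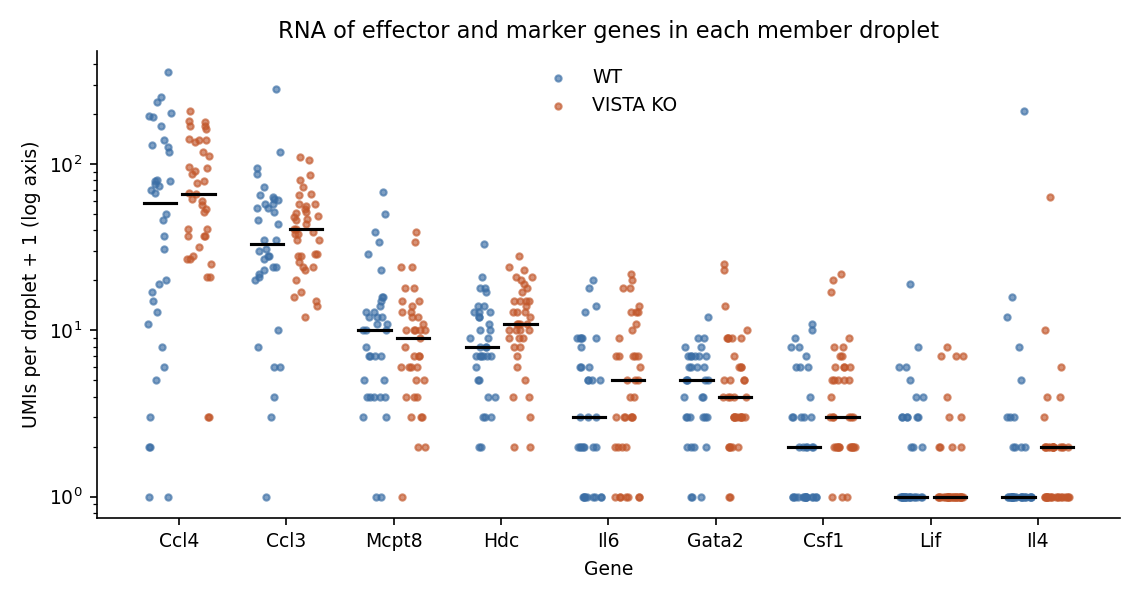
UMIs per member droplet plus 1 on a log axis for chemokine, cytokine and marker genes, with 36 WT and 39 VISTA KO points per gene and a black line at the median. The point clouds of both libraries overlap for every gene drawn, and single droplets at 209 UMIs in WT and 63 in VISTA KO stand far above the rest for Il4.

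The receptors that basophils use were present as well. Csf2rb, the shared beta chain for interleukin 3 and GM-CSF, was found in 30 WT and 37 VISTA KO members, and Il3ra, the interleukin 3 receptor chain, in 13 and 9. Il1rl1, the receptor of interleukin 33, was found in 18 and 14, and the interleukin 18 receptor chain Il18r1 in 17 and 27. Of the 22 cytokine receptor genes listed, 16 were found in at least 10% of members, of which 6 were at least 2-fold above other kept cells in both libraries. Of the 20 genes of the IgE receptor and its signalling, 15 were found that often. Of those, 7 were that far above, namely Fcer1a, Ms4a2, Lat, Lat2, Btk, Gab2 and Cd200r3. Fcer1a and Ms4a2 are rule genes and high by choice. Over all genes found that often, the share was 15.5%. None of the 15 was 2-fold below in both libraries, though Lyn stood at 151 against 329 CPM.

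The share of members did not differ between the genotypes beyond counting error, and its direction followed the C1q limit. Members were 36 of 10193 kept cells in WT (0.353%, interval 0.247 to 0.489%) and 39 of 15140 in VISTA KO (0.258%, 0.183 to 0.352%), a ratio of 0.729 (0.452 to 1.18). Without a limit on C1q, 43 WT (0.422%) and 74 VISTA KO droplets (0.489%) had a marker sum of at least 3, a ratio of 1.16 (0.785 to 1.73). With a C1q sum of 0, the counts were 20 and 6, a ratio of 0.202 (0.0664 to 0.521). C1q RNA was itself more widespread in VISTA KO, where 57.6% of the other kept cells exceeded the limit against 41.2% in WT. When the members were divided by the kept cells within the same limit, the shares were 0.599 and 0.606%, a ratio of 1.01 (0.627 to 1.64).

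Many droplets with basophil RNA lay just outside the C1q limit in VISTA KO. It left out 35 of 74 VISTA KO droplets (47.3%) with a marker sum of at least 3, and 7 of 43 in WT (16.3%). The droplets left out had a median C1q sum of 7 in VISTA KO and 43 in WT, and a median depth of 7011 and 13113 UMIs. Mcpt8 stood at 760 CPM in them in VISTA KO and 622 CPM in WT, and Gata2 was found in 29 of 35 and 7 of 7. Within the members, C1q was 0 in 20, 1 in 11 and 2 in 5 WT droplets, and 0 in 6, 1 in 14 and 2 in 19 VISTA KO droplets. Doublets were not called, and whether such droplets held 2 cells was not tested.

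**Figure D4:**
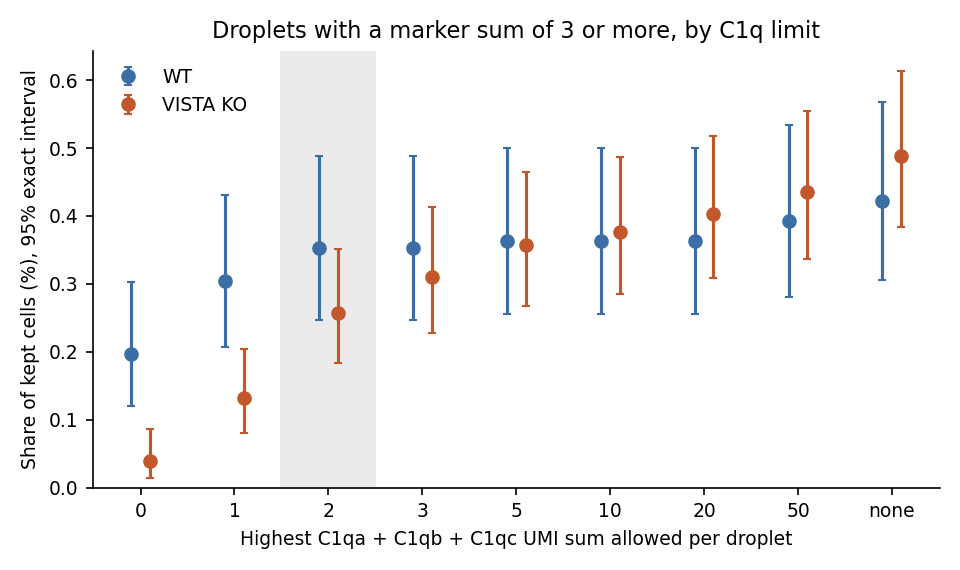
Share of kept cells with a marker sum of at least 3 as the highest allowed C1q sum is raised from 0 to no limit, with exact 95% binomial intervals, WT in blue and VISTA KO in orange and the limit used shaded. WT lies above VISTA KO at the lowest limits, both are at 0.36% at a limit of 5, and VISTA KO lies above with no limit.

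Within the members, the ratio of VISTA KO over WT was computed for 1683 genes with at least 20 UMIs. A gene is called higher or lower when its ratio, with 1 UMI added to each sum, was at least 1.5-fold and the exact 95% counting interval left out 1. This is a rule of size and counting error, not a test between genotypes. It called 105 genes higher (6.24%) and 82 lower (4.87%), 11.1% in all, and the median log2 ratio was -0.00. Counts of listed genes below are read against those shares.

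Basophil markers were split between genes that were not called and genes that fell. Among those not called, log2 ratios were -0.10 (-0.65 to 0.45) for Ms4a2, 0.08 (-0.24 to 0.41) for Gata2, 0.34 (-0.17 to 0.87) for Cd200r3, 0.18 (-0.04 to 0.39) for Hdc and 0.22 (-0.08 to 0.53) for Il6. Of the 20 basophil markers tested, 1 was called higher and 5 were called lower (25%, against 4.87% of all tested genes). Their median was -0.19 on the log2 scale. The 5 lower genes were Mcpt8, Prss34, Il4, Cpa3 and Fcer1a, of which 3 are rule genes that chose the members. Most WT UMIs of Prss34 and of Il4 lay in 1 WT droplet each, with 22 and 209 UMIs. The share of 25% is therefore not read as a result about basophil markers. Csf1, macrophage colony-stimulating factor, was the one called higher.

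Fcer1a was lower in VISTA KO members, but it is a rule gene whose counts helped choose them. Its ratio is therefore a description and not a result about the receptor. It had 29 UMIs in 17 of 36 WT members and 7 UMIs in 7 of 39 VISTA KO members, with no droplet above 4 and 1 UMI, a log2 ratio of -2.21 (-3.79 to -1.13). Its partner chains were not called, with log2 ratios of -0.10 for Ms4a2 and -0.51 (-0.70 to -0.33) for the shared gamma chain Fcer1g. In the droplets left out by the C1q limit, Fcer1a stood at 107 CPM in WT and 51.9 CPM in VISTA KO, a log2 ratio of -1.10 (-2.26 to 0.24). Among members without any C1q UMI the log2 ratio was -0.35 and was not called. Of the 13 tested genes of IgE receptor signalling, the rule gene Fcer1a alone was called.

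Of 14 tested granule genes, 1 was called higher and 7 lower in VISTA KO, and for 6 of those 7 a single WT droplet held from 48.3 to 100% of the WT UMIs. Mcpt2, Mcpt4, Cma1 and Tpsb2 were lower through the 1 droplet with mast cell RNA. Mcpt8 and Cpa3 are rule genes, so their ratios describe droplets chosen on the same counts. Mcpt8 fell from 4265 to 2818 CPM, a log2 ratio of -0.60 (-0.80 to -0.40), and -0.52 without the droplet highest in each library, which is short of the size rule. Cpa3 fell from 543 to 228 CPM, a log2 ratio of -1.23, but one WT droplet held 28 of its 58 UMIs and the ratio without the highest droplets was -0.50. Prss34, another basophil protease, had 30 UMIs in 3 WT and 13 in 8 VISTA KO members, a log2 ratio of -1.45 that became -0.01 without them. Gzmb, a cytotoxic granule protease, rose from 37 to 110 UMIs, found in 4 and 7 members.

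Of 17 tested cytokines and chemokines, 2 were called higher and 3 lower. Il4 fell from 2395 to 752 CPM although it was found in more VISTA KO members (20 against 12), and its log2 ratio of -1.66 (-2.02 to -1.33) became -0.68 without the highest droplet of each library. In the droplets left out by the C1q limit Il4 went the other way, with 1 UMI in 7 WT and 41 in 35 VISTA KO droplets, a log2 ratio of 2.58 (0.99 to 8.88). Lif, a gp130 cytokine, fell from 60 UMIs in 16 members to 36 in 11, a log2 ratio of -1.02 (-1.68 to -0.42). Its direction turned in the droplets left out by the C1q limit, with 1 and 76 UMIs and a log2 ratio of 3.45 (1.91 to 9.76), and among members without C1q UMIs (0.62). Cxcl2, a neutrophil attractant, fell from 167 UMIs in 11 members to 22 in 8, a log2 ratio of -3.17, against -2.25 in other kept cells. Csf1 rose from 81 UMIs in 21 of 36 members to 157 in 36 of 39, a log2 ratio of 0.65 (0.26 to 1.06). Ccl5, a T cell attractant, rose from 10 to 154 UMIs, in 6 and 19 members, a log2 ratio of 3.52 (2.73 to 4.73). Over both libraries, the 5 highest droplets held 79.3% of its UMIs. The log2 ratio of Ccl5 was 3.63 without the highest droplet of each library and 1.02 in other kept cells. Among members without C1q UMIs it was 0.15 and was not called.

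Among receptors, Csf2rb rose with a log2 ratio of 0.62 (0.25 to 1.01), from 832 to 1284 CPM. Il1rl1 fell with a log2 ratio of -1.30 (-2.27 to -0.47), from 35 UMIs in 18 members to 17 in 14. Crlf2, a receptor chain for thymic stromal lymphopoietin, fell from 29 to 18 UMIs, a log2 ratio of -0.96 (-1.92 to -0.09). The other 10 tested receptors of that list were not called. Of 21 tested adhesion and inhibitory receptors, Cxcr4, the receptor of CXCL12, was the one called, at 1.13 (0.09 to 2.51). Of 15 tested lineage transcription factors, Nr4a1 was called higher (0.76) and Runx1 (-0.70) and Bhlhe40 (-2.62) lower, where Bhlhe40 had 19 UMIs in 9 WT and 3 in 3 VISTA KO members. With no C1q limit, Csf2rb (0.23), Crlf2 (-0.20), Cxcr4 (0.29), Nr4a1 (0.15) and Bhlhe40 (-0.78) were not called. Il1rl1 (-1.16) and Runx1 (-0.61) were still called there. Il1rl1 was not called among members without C1q UMIs (-0.18), nor was Runx1 at a marker sum of at least 2 (-0.55).

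**Figure D5:**
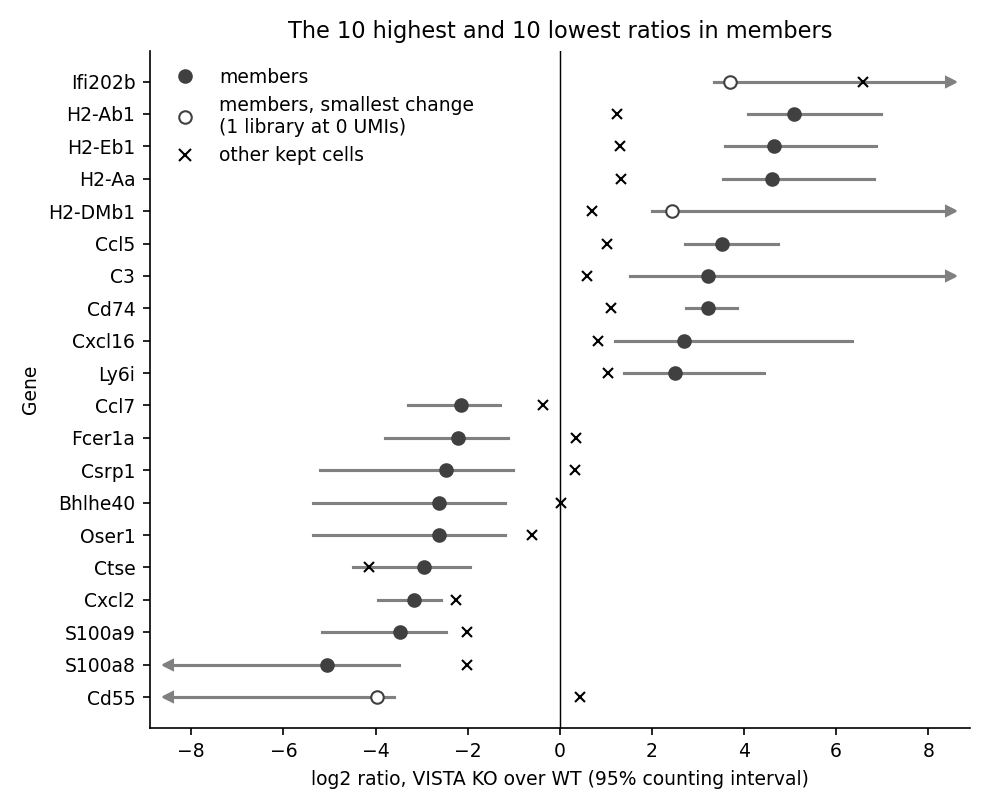
Log2 ratio of VISTA KO over WT in members for the 10 highest and 10 lowest ratios among genes found in at least 10% of members of either library, with exact 95% counting intervals (arrows where an interval leaves the axis), open points at the smallest change where 1 library had 0 UMIs, and crosses for other kept cells. Class II genes lie right of their crosses, and Cd55 and the rule gene Fcer1a lie left of crosses near 0. Ctse and Ifi202b move the same way in other cells.

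The lowest ratios of all were those of Mcpt2, Cma1 and Mcpt4, which lay in the 1 droplet with mast cell RNA. Of the 10 lowest and 10 highest ratios among genes found in at least 10% of members of either library, Cd55, Ctse, Csrp1, Fcer1a and Ifi202b lie on chromosome 1. Cd55 (chr1:130429798-130465009), the complement decay-accelerating factor, had 38 UMIs in 12 of 36 WT members and 0 in 39 VISTA KO members, at least 15.6-fold lower. In other kept cells Cd55 stood at 0.633 and 0.873 CPM, and in the droplets left out by the C1q limit it had 1 UMI in 7 WT and 8 UMIs in 35 VISTA KO droplets. Ctse (chr1:131638314-131675507), the protease cathepsin E, had 49 UMIs in 27 WT members and 7 in 4 VISTA KO members, a log2 ratio of -2.94 (-4.50 to -1.96), and it was -4.15 in other kept cells. Ifi202b (chr1:173962569-173982844), an interferon-inducible gene, had 0 UMIs in WT and 48 in 11 VISTA KO members, at least 13-fold higher, and was 6.59 in other kept cells on the log2 scale. Of 112 tested genes on chromosome 1, 19 were called (17.0%), against 11.1% of all. The share was higher on chromosome 13, with 13 of 55 (23.6%), and was 15.5% on chromosome 5, 15.4% on chromosome 16 and 14.7% on chromosome 17. Ptprc (chr1:138062859-138175756), which encodes the CD45.1 and CD45.2 forms used in the sort, is on the same chromosome. Genotype and CD45 form cannot be told apart in this design. Reads of Ifi202b can be shared with related Ifi200 genes, so its counts are uncertain.

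MHC class II RNA was higher in VISTA KO members, and much of it lay in a few droplets. H2-Ab1, a class II beta chain, had 5 UMIs in 5 WT members and 249 in 32 VISTA KO members, a log2 ratio of 5.08 (4.10 to 6.97). H2-Aa rose from 4 to 150 UMIs, H2-Eb1 from 4 to 154 and Cd74, the invariant chain, from 31 to 367. The median VISTA KO member held 1 UMI of H2-Ab1, 0 of H2-Aa, 1 of H2-Eb1 and 2 of Cd74, against highest values of 80, 42, 50 and 104, and a WT median of 0 for each. Over both libraries, the 5 highest droplets held 80.3% of H2-Ab1, 85.7% of H2-Aa, 80.4% of H2-Eb1 and 74.1% of Cd74 UMIs. Without the highest droplet of each library the log2 ratio of H2-Ab1 was 4.79 (3.72 to 6.99). Of 7 tested class II genes, 6 were called higher and none lower. The median log2 ratio of the 7 was 4.09, or 3.22 when H2-DMb1, which had 0 UMIs in WT, was set to its smallest change of 5.41-fold. Among 13 tested class I genes, which nearly all nucleated cells carry, H2-T23 was called higher and none lower.

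Class II RNA was higher in VISTA KO in other droplets too. Together H2-Aa, H2-Ab1, H2-Eb1 and Cd74 stood at 412 CPM in WT and 6987 CPM in VISTA KO members, at 1461 and 5007 CPM in NK reference droplets and at 6774 and 14032 CPM in neutrophil reference droplets. In members without a C1q UMI they stood at 499 CPM in 20 WT and 1145 CPM in 6 VISTA KO droplets. In members with a C1q sum of 1 or 2 they stood at 322 CPM in 16 WT and 7933 CPM in 33 VISTA KO droplets. The macrophage gene Apoe had a UMI in 41.7% of WT and 76.9% of VISTA KO members, and rose with a log2 ratio of 2.14 (1.63 to 2.77), while the myeloid gene Lyz2 rose with 1.12 (0.88 to 1.37). The VISTA KO member highest in Cd74, at 104 UMIs, held 1 UMI of Apoe and 2 of Lyz2, while the next, at 99, held 41 and 167. The part of macrophage RNA in the class II ratios was not tested.

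S100a8 and S100a9, alarmins of neutrophils, fell in VISTA KO members from 53 to 1 and from 62 to 6 UMIs. Single WT droplets held 48 of the 53 and 60 of the 62 UMIs, and without the highest droplet of each library the log2 ratio of S100a9 was 0.11 and that of S100a8 was -2.89, from 5 UMIs in WT and 0 in VISTA KO. Their log2 ratios in other kept cells were -2.01 and -2.02, and the part of neutrophil RNA was not tested.

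Vsir itself was close to its detection limit in members. It had 11 UMIs in 10 of 36 WT members and 6 in 5 of 39 VISTA KO members, a log2 ratio of -1.08 (-2.89 to 0.39), against -1.56 in other kept cells (137 and 46.2 CPM). The labels do not say which part of Vsir is deleted, and 3' counting can still record RNA outside it. Of 11 tested genes of the STAT3 and polyamine list, Arg1, arginase 1, was called higher (0.98, 27 to 67 UMIs in 6 and 16 members) and Eif5a, the hypusinated translation factor, lower (-0.78). Arg1 was lower, at -2.08, among members without C1q UMIs.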

How the data were processed

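The deposited matrices hold counts, whole-number UMIs per gene and antibody tag in each droplet, written by Cell Ranger 5.0.0 per the file headers. Per the submitters' processing notes, mm10, Cell Ranger and Seurat 4.0 were used. For cell calling, settings were not given in the sources used here. Kept cells had 200 or more genes, 500 or more gene UMIs and no more than 10% mitochondrial UMIs. These were 10193 of 10241 barcodes for WT and 15140 of 15257 for VISTA KO, from matrices of 61753547 and 80366761 gene UMIs. Doublets were neither called nor removed. Members were found by the rule on raw UMIs, their UMIs were summed per library and given as CPM, and ratios had a pseudocount of 1 UMI with exact conditional binomial intervals at the 95% level. A library with 0 UMIs was set to a floor of 3 counts per library. Symbols found more than once were read from their first entry. Gene positions and promoters came from RefSeq on GRCm38.p6. Named genes were the 25 genes highest in members over other cells, the 10 highest and 10 lowest ratios among genes with at least 20 UMIs in members and found in at least 10% of members of either library, Vsir and members of the gene lists. Mitochondrial, ribosomal protein, sex-linked marker and unnamed model genes were left out of the rankings. The members, lists and rules were chosen with earlier results of these data known. Calculations used Python 3.11.15, numpy 2.4.6, scipy 1.17.1 and pandas 2.3.3, and ratios and calls were tested on simulated data. Alternatives changed the marker, C1q, cell and UMI limits, the scaling, the pseudocount and the droplets summed.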

Additional observations from a re-analysis of the deposited data

Results flagged for a closer look

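In 2 listed or named genes outside the rule, Csf1 and Gzmb, the members and the kept cells with no UMI of the rule genes moved in opposite directions between the libraries by at least 1.5-fold each, with both intervals off 1. Csf1 had a log2 ratio of VISTA KO over WT of 0.65 in members and of -1.53 (-1.62 to -1.45) in the cells without rule genes, where it stood at 63.0 CPM in WT and 21.8 CPM in VISTA KO. Gzmb had a log2 ratio of 1.25 in members and of -0.65 (-0.69 to -0.61) in those cells, at 196 and 125 CPM. Each difference between members and other cells was not tested, since each genotype is 1 library. Gzmb in members rested on 4 WT and 7 VISTA KO droplets. With no C1q limit neither gene was called, at 0.44 (0.11 to 0.80) for Csf1 and 0.49 (0.02 to 1.02) for Gzmb. Among members without C1q UMIs, Csf1 was not called, at 0.24 (-0.71 to 1.02), while Gzmb was, at 1.71 (1.03 to 2.40).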

How the results depend on the processing

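No paired analysis was possible because there was 1 library per genotype, and no replicate could be left out. The setting that moved most values was a C1q sum of 0, which leaves 20 WT and 6 VISTA KO droplets: the log2 ratio of the shares was -2.31, the basophil side held 100% of droplets, 34 genes were called higher and 36 lower of 547 tested, and log2 ratios reversed for Csrp1 (0.24), Cpa3 (0.18), Prss34 (1.15), Lif (0.62) and Arg1 (-2.08). With no C1q limit, 161 genes were higher and 170 lower of 3965 tested, and Ccl7 reversed to 1.48. With at least 50 UMIs, 56 were higher and 45 lower, and by fold alone 251 and 222. S100a9 reversed to 0.11 among members with an S100a8 and S100a9 sum of at most 2, and to 0.11 without the highest droplet of each library. Ccl7 reversed to 0.44 among members with Ly6C tags under the monocyte reference median. The causes were not tested, beyond the smaller numbers of droplets and genes. With Mcpt8 left out of the split, the basophil side held 54.7% of droplets. The settings on Mcpt8, on Ly6C tags, on the droplet with mast cell RNA, on the highest droplet per gene and on the share within the C1q limit were chosen after seeing the data. Of 52 named genes, 42 were called, and 8 of those kept their call in each of the 16 alternatives run on ratios: Cd55, Cxcl2, H2-Ab1, H2-Eb1, Cxcl16, Ly6i, Il4 and Apoe. With 75 droplets at a median of 2515 UMIs, genes under 20 UMIs were not called in the main setting. The alternatives labelled named genes without that limit, so some kept calls rest on few UMIs. At a C1q sum of 0, H2-Ab1 was called at 2.78 (0.66 to 6.49) and Cxcl16 at 3.56 with a lower bound of 0.29.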

Other observations

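Some early-response and NF-kappaB feedback genes were high in the members of both libraries. Of 20 listed NF-kappaB feedback genes, 15 were found in at least 10% of members, of which 6 were at least 2-fold above other kept cells in both libraries and Ccrl2 was at least 2-fold below, against 15.5% above over all genes found that often. Tnip3 had 0 UMIs in members against 51.2 CPM, and Relb stood at 8.38 against 40.8 CPM. Among the higher ones were Nfkbia at 2722 CPM in WT and 2841 CPM in VISTA KO members, Ier3 at 5584 and 5370 CPM, and Nfkbiz at 786 and 904 CPM. Tnfaip3, which encodes the feedback inhibitor A20, was called higher in VISTA KO members, with a log2 ratio of 0.67 (0.18 to 1.21). The immediate early gene Egr1 stood at 1104 and 1466 CPM, against 121 and 89.5 CPM in other kept cells. Of the 20 genes listed for tissue dissociation and heat shock, 8 were also at least 2-fold above other cells in both libraries, among them Fosb, Jun, Jund and Dusp1, and the part of tissue handling was not tested.

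The adhesion molecule gene Cdh1, E-cadherin, was found in 27 WT and 26 VISTA KO members at 430 and 425 CPM, against 10.3 and 21.2 CPM in other kept cells. Ifitm1, an interferon-inducible membrane protein gene, stood at 15864 and 17211 CPM in members, against 739 and 519 CPM. Of 25 tested interferon-stimulated genes, 2 were called higher and 1 lower in VISTA KO members, and Isg15 was the lower one, with a log2 ratio of -1.35 against -1.20 in other kept cells.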
